A study of Caenorhabditis elegans with 2 samples.

Results

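HLH-12 peaks with their summit in protein-coding sequence, away from promoters and small RNA genes, numbered 1149 of the 6661 nuclear peaks (17.2%) in the relaxed list that the authors called on both replicates together. Per the file listings, that list holds background as well as peaks, so a member is not by itself a site bound by HLH-12. A peak was a member if its summit lay in a coding interval of a protein-coding gene, outside promoters, taken as 1000 bp before to 200 bp after the 5′ end of any protein-coding gene, and more than 200 bp from any gene for a microRNA, tRNA, rRNA, snRNA or snoRNA (together called small RNA genes). Among the listed peaks membership rests on position alone. Signal entered only through the list itself, which starts at a value of 26.3. The other nuclear peaks had their summits in introns (1813), promoters (1538), intergenic sequence (1365), at small RNA genes (545) and in the untranslated parts of exons (251). The data are ChIP-seq of whole hermaphrodite young adults of Caenorhabditis elegans strain OP538, collected 64 hours after synchronization as starved L1 larvae, with 2 biological replicates in 1 group. The strain carries the allele unc-119(tm4063) and the transgene wgIs538, from which HLH-12 is made with a GFP-FLAG tag at its C-terminal end, and the precipitation used an antibody against GFP. The labels give neither the promoter nor the cells in which the transgene is active, and no library from untagged animals was analysed here.

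HLH-12 belongs to the basic helix-loop-helix factors, which bind DNA as dimers at the E-box, a hexamer that begins with CA and ends with TG. Distal tip cells, which head the arms of the growing gonad, use it in their migration. In ChIP-seq, sonicated chromatin is precipitated through the tagged protein, and a peak is a place where the precipitated fragments pile up above a control. Sites of transcription factors in the compact genome of this worm are mostly sought in promoters. Coding exons are richer in G and C than the introns and intergenic sequence around them, and their sequence is constrained by the protein they encode.

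The reference sequence at 8 members is shown first: the 4 in the authors' IDR list (cut by the irreproducible discovery rate, which scores how well the ranks of peaks repeat), the strongest member below that list (his-24), a member beside the hlh-12 locus (C28C12.11) and the 2 strongest members in cuticle collagen genes outside rol-1. Each runs up to 50 bp to either side of the summit and ends where the coding exon ends. Sequences are from the WBcel235 reference (ce11), read 5′ to 3′ on the coding strand of the gene, and capitals mark every E-box.
nuaf-1 chrV:13567054-13567154, minus strand: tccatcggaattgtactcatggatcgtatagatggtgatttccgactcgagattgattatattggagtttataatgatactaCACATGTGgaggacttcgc
gly-5 chrIII:13188136-13188201, plus strand: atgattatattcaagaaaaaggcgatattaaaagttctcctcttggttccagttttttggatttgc
clec-264 chrV:20847751-20847833, minus strand: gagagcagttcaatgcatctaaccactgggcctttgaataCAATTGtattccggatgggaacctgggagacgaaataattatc
F26H11.4 chrII:14409844-14409912, plus strand: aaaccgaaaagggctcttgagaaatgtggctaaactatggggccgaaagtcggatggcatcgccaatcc
his-24 chrX:14490546-14490646, plus strand: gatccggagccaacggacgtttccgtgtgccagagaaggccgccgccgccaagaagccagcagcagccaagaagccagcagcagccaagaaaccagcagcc
C28C12.11 chrIV:8474868-8474968, plus strand: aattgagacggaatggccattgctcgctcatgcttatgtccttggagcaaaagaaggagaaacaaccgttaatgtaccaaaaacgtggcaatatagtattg
col-175 chrX:9234066-9234166, minus strand: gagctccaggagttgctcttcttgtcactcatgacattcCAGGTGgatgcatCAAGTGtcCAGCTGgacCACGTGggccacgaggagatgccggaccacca
col-98 chrIII:13019540-13019640, plus strand: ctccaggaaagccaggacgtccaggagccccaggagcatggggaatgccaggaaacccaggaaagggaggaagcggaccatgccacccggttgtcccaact
In the nuaf-1 stretch a pair of overlapping E-boxes starts at base 83, and in clec-264 there is 1, at base 41. The stretch at col-175 holds 4, of which CAGGTG at base 40 is the first. The other 5 stretches hold none. The gly-5 stretch opens with the start codon. Over the full 50 bp to either side, G and C make up 64.4% at his-24 and 62.4% at col-98, against 36.6% at gly-5.

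The strongest member lay in the last coding exon of nuaf-1, a gene for a putative assembly factor of respiratory complex I, at chrV:13566886-13567321. Its pooled signal, the peak value that the authors' caller gave, was 67.2, with 39.7 in replicate 1 and 20.6 in replicate 2 (mean 30.1 ± 13.6, SD, n = 2). The next lay over the start of the coding sequence of gly-5, which encodes an enzyme that attaches the first sugar of mucin-type chains. It also lay near an annotated internal transcript start, and its pooled signal was 64.8, with 25.4 in replicate 1 and 34.8 in replicate 2. The order of the replicates was thus opposite at these genes. At clec-264, a C-type lectin gene, the pooled signal was 64.1, and the replicates had 39.6 and 28.0. A second member in clec-264, with a pooled signal of 48.6, overlaps the first and carries the same replicate values. F26H11.4, whose product has a ULP protease domain, had 61.3 in the pooled list, 22.6 in replicate 1 and 37.9 in replicate 2.

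These 4 peaks (without the second one in clec-264) were the members present in the IDR list, 0.348% of 1149 (95% Wilson interval 0.135 to 0.892). Of all nuclear pooled peaks, 3.45% were in that list, and among the peaks that are no members it was 226 of 5512 (4.10%). Introns (0.717%), intergenic sequence (1.32%) and promoters (1.30%) also had low shares, and peaks at small RNA genes had 31.4%. The linker histone gene his-24 came just below the lowest nuclear IDR signal of 57.3, with a pooled signal of 57.2 and replicate signals of 35.9 and 21.8. Members were thin among the strongest peaks and evenly spread below them. They made up 1.74% of ranks 1 to 230, 13.4% of ranks 231 to 1000, 17.8% of ranks 1001 to 2000, 18.65% of ranks 2001 to 4000 and 18.5% of ranks 4001 to 6661. With peaks at small RNA genes set aside, the share was 6.78% in the first of these ranges and between 17.5% and 19.2% in the other 4.

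Below his-24, the strongest members lay in genes of varied function. The peak in gstk-2, a kappa-class glutathione S-transferase gene, had a pooled signal of 53.4, with 25.5 in replicate 1 and 20.1 in replicate 2. C28C12.11, which lies beside hlh-12, had 51.2 (29.0 and 22.8). stdh-1, a putative steroid dehydrogenase gene, had 50.9 (20.6 and 32.03), and rol-1, whose product has the amino-terminal domain of cuticle collagens, had 50.8 (17.8 and 35.2). Replicate 2 was the higher of the pair at stdh-1 and rol-1, and replicate 1 at gstk-2 and C28C12.11. ccg-1, dyf-2, F31E3.12, C04F12.5 and cls-2 had pooled signals from 47.9 to 49.7, and with the second peak in clec-264 they completed the 15 strongest. dyf-2 encodes a WD repeat protein of ciliary transport, and cls-2 a microtubule-binding protein of the CLASP family.

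As a whole, the members' signal was close to that of peaks elsewhere in the genome, other than at small RNA genes. Their pooled signal ran from 26.3 to 67.2, with a median of 30.3 and quartiles of 27.9 and 33.8, against a median of 30.7 in all other nuclear peaks. Intron peaks had a median of 30.2, intergenic peaks 29.97, promoter peaks 30.5, peaks in untranslated exon sequence 31.9 and peaks at small RNA genes 46.3. In replicate 1 the members' median was 18.7 and that of all other peaks 19.1. In replicate 2 the members' median was 15.3 and that of all other peaks 16.3. Over the 2 replicates the members' median averaged 16.98 ± 2.40 and that of the other peaks 17.7 ± 2.02 (SD, n = 2). The SDs hold the offset between the libraries, and the members were lower than all other peaks, which include those at small RNA genes, in each library. Against intron and intergenic peaks the order was not shared by the replicates. In replicate 1 intron peaks had a median of 18.33 and intergenic peaks 18.26, below the members. In replicate 2 they had 15.57 and 15.55, above the members. The −log10 q of the members lay between 0.0177 and 1.13, with a median of 0.0745. A −log10 q near 0 means a high q, so by this value most members were not told apart from background.

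**Figure D1:**
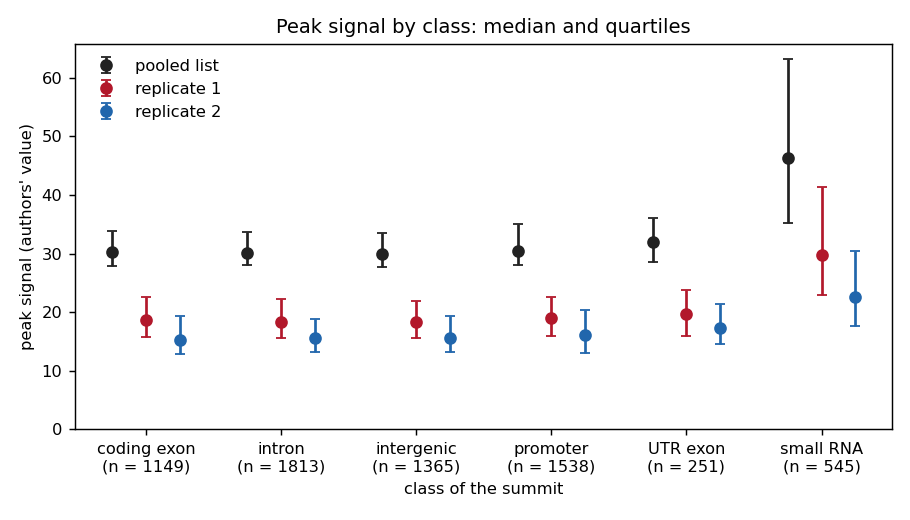
Signal of the nuclear peaks of the pooled list by the class of their summit, coding exon peaks first, with the authors' peak value on the y axis. Points are medians and bars run between the quartiles, for the pooled list (black), replicate 1 (red) and replicate 2 (blue); coding exon peaks, at a pooled median of 30.3, sit level with intron, intergenic and promoter peaks, below small RNA peaks at 46.3.

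How far both replicates listed the same peaks was asked next. A counterpart is an overlap of at least 1 bp with one of the 6661 strongest nuclear peaks of a replicate. Of the members, 170 had a counterpart in both replicates (14.8%, 12.9 to 16.97), where 20.7% of all nuclear pooled peaks had one. Intron peaks had 14.1%, intergenic peaks 15.02%, promoter peaks 20.4% and peaks at small RNA genes 66.2%. A further 437 members (38.03%) had a counterpart in replicate 1 alone, 304 (26.5%) in replicate 2 alone and 238 (20.7%) in neither. Any overlap in the whole relaxed lists was found in both replicates for 675 members (58.7%), while 208 had none in replicate 1 and 270 had none in replicate 2. Counterparts were most frequent among the 288 strongest members, at 38.9%, and lowest among the 287 weakest, at 3.83%. The sum of both replicate signals came close to the pooled signal (median ratio 1.02), which is not independent of these counts.

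The same rule of position was applied to each replicate list, cut to its 6661 strongest nuclear peaks, which the pooled signal did not choose. It gave 1280 coding exon peaks in replicate 1 (19.2%) and 1196 in replicate 2 (17.96%). Of those in replicate 1, 183 (14.3%) overlapped any of the 6661 in replicate 2, and of those in replicate 2, 185 (15.5%) overlapped any of the 6661 in replicate 1. The shares were 15.2% and 14.5% for intron peaks, 15.8% and 15.2% for intergenic peaks, and 69.4% and 80.3% for peaks at small RNA genes. The shares of coding exon peaks lay beside those of intron and intergenic peaks and far from those of small RNA genes, and the differences between classes were not tested.

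Across the 675 members with a value in both replicates, signals in one did not follow those in the other. The rank correlation was -0.08 and, on the log2 scale, Pearson's r was -0.02, against 0.20 and 0.43 over 3464 other nuclear peaks. Among those others, the values were -0.04 and 0.08 in 1093 intron peaks, 0.04 and 0.26 in 799 intergenic peaks, 0.07 and 0.18 in 931 promoter peaks and 0.49 and 0.53 in 468 peaks at small RNA genes. These are descriptions over peaks of the same 2 libraries. The pooled list starts at a signal of 26.3, near the sum of both replicates, so peaks low in both are missing and any correlation within it is lowered. Replicate 1 was the higher at 472 of the 675 (69.9%), with a median ratio of 1.20. The median SD between the replicates of a member was 3.13, which includes this offset, and the SD among the members' means was 3.40.

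**Figure D2:**
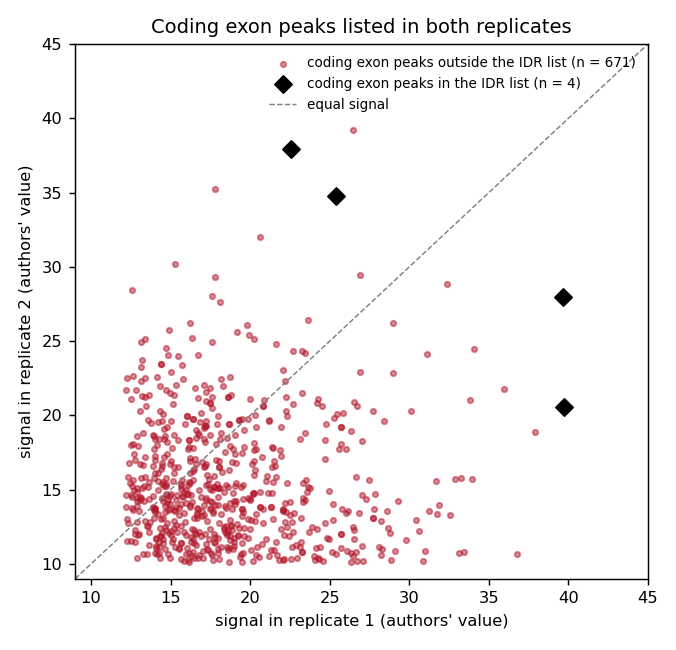
Signal in replicate 1 (x axis) and replicate 2 (y axis), both as the authors' peak values, for the 675 coding exon peaks listed in both replicates; the dashed line marks equal signal. The 4 peaks in the IDR list (diamonds) lie toward the upper right, and the remaining points form a cloud without a slope.

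The members' sequence was set against all 20.03 Mb of eligible coding positions, which are the coding bases where a summit would have made a peak a member, each counted once. Members were richer in G and C. Within 50 bp of the summit their median GC was 43.6% (quartiles 38.6% and 48.5%), against 40.6% (36.6% and 45.5%) around eligible coding positions. The median of the positions was exceeded by 63.3% of the members. The difference of 2.97 percentage points was 1.98 in the coding exon peaks of either replicate list alone. It fell to 1.00 within 200 bp, where members had 39.7% and positions 38.7%. In 21 bp at the summit itself, mean GC was 46.2% in members and 42.8% at positions, a difference of 3.41 points. Peaks elsewhere differed from their own positions by a like amount, with 3.28 points at intron summits and 3.35 at intergenic summits, so a higher GC at the summit was seen in those classes too.

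**Figure D3:**
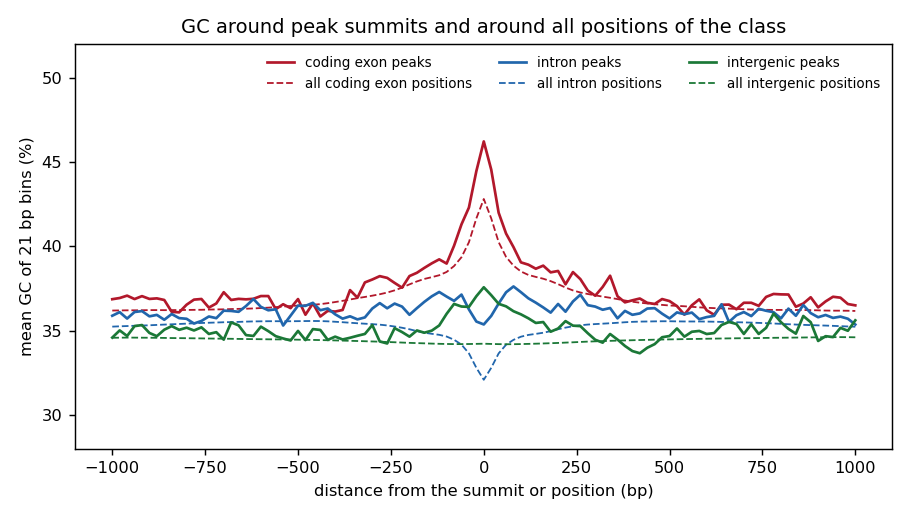
Mean GC in bins of 21 bp (y axis, %) by distance from the summit (x axis, bp), for coding exon, intron and intergenic peaks (solid lines) and for all positions of the same class (dashed lines). At the summit, coding exon peaks reach 46.2% against 42.8% at coding positions, and intron and intergenic peaks also lie above their own positions.

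The density of members increased with GC through the whole range. Coding positions with under 30% GC held 17.2 members per Mb, those between 40% and 45% held 58.4, those between 50% and 55% held 85.4 and those of 60% or more held 188.6, the last resting on 29 members. Over all eligible coding positions it was 57.4 per Mb. Signal varied little over the same bins, with pooled medians between 29.8 and 31.6. The depth of the control and the sequencing yield by GC were not analysed here, and their part in this relation was not tested.

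The share of members with an E-box lay near that of coding sequence at large. A CANNTG hexamer lay within 50 bp of 499 summits (43.4%, 40.6 to 46.3), against 44.9% of eligible coding positions. Weighted to the GC of the members, the share of positions was 45.3%. From replicate 1 alone the difference was 0.44 percentage points and from replicate 2 alone it was -0.39, so its sign was not shared. Of the 10 E-box classes, CAGATG (with its reverse complement CATCTG) was the one most above the positions, at 8.44% (6.97 to 10.2) of members against 7.21%. CACGTG stood at 3.05% (2.20 to 4.21) against 2.49%, CAGCTG at 3.57% (2.64 to 4.80) against 3.50%, CACATG at 3.66% (2.72 to 4.90) against 3.91%, CAATTG at 5.13% (4.00 to 6.57) against 6.65% and CATATG at 1.48% (0.926 to 2.36) against 2.38%. Of the 10 classes, the intervals of CAATTG and CATATG left out the share of positions, both below it. The shares of single classes were not weighted to the GC of the members, and the part of GC in them was not tested. Among the 4 members in the IDR list, nuaf-1 and clec-264 had an E-box within 50 bp of the summit, and gly-5 and F26H11.4 had none. The share did not follow signal, with 43.4% in the 288 strongest members and 39.02% in the 287 weakest.

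Along the genes, members were more frequent near the end of the coding sequence. Their median place was 55.2% of the way from start codon to stop codon, against 52.5% for eligible coding positions. The last 20% of the coding sequence held 281 members (24.5%, 22.1 to 27.02), against 19.7% of positions, and the first 20% held 174 (15.1%, 13.2 to 17.3) against 13.9%. Between 20% and 40% there were 217 (18.9%, 16.7 to 21.3) against 21.95%. From their number of bases 226.4 members would be placed in the last 20%, and with the GC of those bases taken into account 227.5. By exon, 198 members (17.2%, 15.2 to 19.5) lay in the last coding exon, against 13.9% of positions. The first coding exon held 46 (4.00%) against 4.06%, and 897 (78.1%) lay in internal exons against 81.5%. The difference in median place, 2.70 points, was 1.70 from replicate 1 alone and 2.87 from replicate 2 alone, and 1.251 when each place was averaged over all transcripts of the gene.

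**Figure D4:**
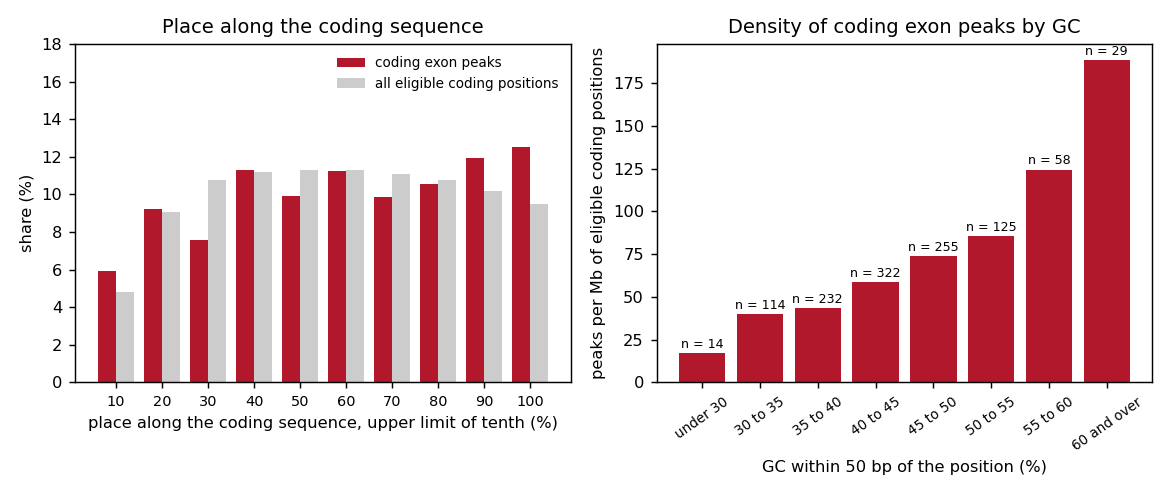
Left, share (y axis, %) of coding exon peaks (red) and of all eligible coding positions (grey) in steps of 10% of the coding sequence, from start codon to stop codon (x axis). Right, coding exon peaks per Mb of eligible coding positions (y axis) by GC within 50 bp (x axis), from 17.2 under 30% to 188.6 at 60% and over, with the number of peaks above each bar.

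Some members lay near starts that the rule did not use. The window of 1000 bp upstream to 200 bp downstream of an annotated internal transcript start held 89 members (7.75%, 6.34 to 9.44), against 5.50% of eligible coding positions. Among them were the members in gly-5, csr-1, nhr-88 and hlh-30, and those in rme-6 with pooled signals of 36.9 and 29.0. Genes of piRNAs, small RNAs of the germline that the rule did not set aside, lay within 200 bp of 26 members (2.26%, 1.55 to 3.29), against 1.46% of positions. The members in gstk-2, ccg-1 and hlh-31 were among these. Genes annotated as ncRNA, also not set aside, lay within 200 bp of 16 members (1.39%), his-24 and col-151 among them, against 1.23% of positions. Just outside the rule, 32 peaks in coding sequence away from promoters lay 1 to 200 bp from a small RNA gene, with a median pooled signal of 41.5, and 3 of them were in the IDR list. Just inside it, the 7 members 201 to 400 bp from such a gene had a median of 31.1, and the 1118 members more than 1000 bp away had 30.2. At the edge of the promoter window there was no such step: the 69 members within 100 bp of it had a median of 30.8, and 110 peaks just inside the window had 30.3.

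By chromosome, X and V held the most members for their coding length. X had 219 (19.1%, 16.9 to 21.4) with 15.5% of the eligible bases, a ratio of 1.23, and V had 281 (24.5%, 22.1 to 27.02) with 21.8%, a ratio of 1.12. Chromosome I was lowest, with 149 (13.0%, 11.1 to 15.03) and 16.1% of the bases, a ratio of 0.803. From the GC of their positions, 179.0 members would be placed on X, 236.9 on V and 189.6 on I. By pooled signal X had more of the strong members, 23.6% of the 288 strongest and 16.7% of the 287 weakest. The replicates did not share this. In replicate 1 the median signal of members on X, 19.04, was the highest of all chromosomes. In replicate 2 it was 15.28, below I (15.71), III (15.72) and IV (15.63) and above II (15.16) and V (14.92).

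Members were spread over many genes, mostly 1 each. They lay in 1079 of the 18406 protein-coding genes with eligible bases, a background of 5.86% per gene. Of these genes, 1014 held 1 member, 61 held 2, 3 held 3 and 1 held 4. Genes with a member had a median of 1337 eligible bases, against 795 in genes without. The gene with 4 was rme-6, which encodes a regulator of endocytosis, where 0.166 would fall by its share of eligible bases. Its members had pooled signals of 36.9, 33.2, 29.0 and 26.6, and the second and last of these overlap and share replicate values of 20.8 and 20.6. cdh-12, a cadherin gene, held 3, at 36.3, 30.3 and 28.5, where 0.467 would fall. gfi-2, an ankyrin repeat gene, held 3 at 36.4, 27.7 and 26.99, where 0.0784 would fall. ttn-1, which encodes a giant titin-like muscle protein, held 3 at 27.2, 26.7 and 26.7, where its long coding sequence alone gives 3.15. In each of gfi-2 and ttn-1, 2 of the 3 overlap. In all, 22 pairs of members had summits within 500 bp of each other.

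The gene lists were read by how many members each would hold from its share of eligible bases alone, and again with the GC of those bases taken into account. No test was made on a list. Cuticle collagens, which build the worm's outer coat and are made anew at each moult, departed most by bases among the lists of more than 100 genes. They held 20 members in 20 of 171 genes (11.7%), where 7.42 would fall by bases, a ratio of 2.69. Their coding sequence is GC-rich, with a mean of 54.5% over its eligible positions. From bases and GC together 15.4 members would fall there, a ratio of 1.30, and on that scale other lists of this size departed further. The density by GC came from all members, these 20 included, with only 29 members at 60% GC and over. The collagen members thus helped to set the 15.4, which draws the ratio toward 1, and how much of the surplus goes with GC was not tested. When promoters were widened to 2000 bp upstream (500 bp downstream) there were 12 members, where 3.98 would fall by the remaining bases. The replicate lists alone gave 20 in replicate 1, where 8.27 would fall by bases, and 23 in replicate 2, where 7.73 would. The strongest of the list, which does not hold rol-1, was in col-175 (pooled 45.1, replicates 31.2 and 13.6), followed by col-98 (41.5, with 25.6 and 17.7) and col-151 (40.7, with 33.3 and 15.8), all higher in replicate 1. Signals of the 20 ran from 26.3 to 45.1 and GC from 47.5% to 70.3%, and 4 had a counterpart in both replicates.

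Chemoreceptors, the large families of G protein-coupled receptors that serve smell and taste, departed the other way. They held 31 members in 30 of 1303 genes (2.30%), where 53.6 would fall by bases and 41.3 by bases and GC. The mean GC of their eligible positions is 36.5%. The ratios were 0.578 and 0.750. Replicate 1 alone gave 45 members, where 59.7 would fall by bases, and replicate 2 alone gave 46, where 55.8 would. Numbers from bases and GC together were not computed for the replicate lists, here or for the cuticle collagens. Whether either replicate list falls short once GC is taken into account thus cannot be read from these counts. When promoters were widened to 2000 bp upstream (500 bp downstream), 10 members were found where 27.2 would fall. srg-61 had a pooled signal of 39.9, with 18.7 in replicate 1 and 22.6 in replicate 2. sre-31 had 37.4, with 19.1 and 15.4. srw-124 had 36.9, with 32.3 in replicate 1 and no overlapping peak in replicate 2.

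**Figure D5:**
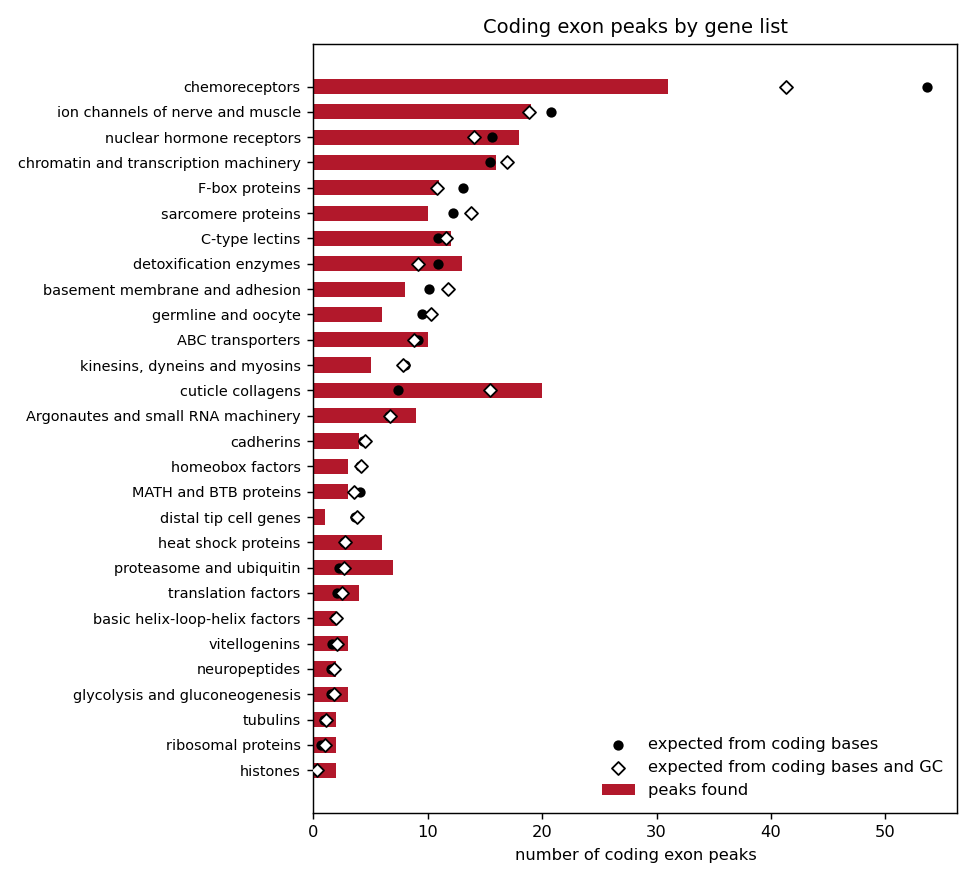
Number of coding exon peaks (x axis) found in each gene list with at least 1 peak or more than 1 expected (bars), with the number that its share of eligible coding bases gives (filled circles) and the number that bases and GC give together (open diamonds). Cuticle collagens, with 20 found, lie nearer to the diamond at 15.4 than to the circle at 7.42, and chemoreceptors, with 31, lie below both. The diamonds rest on the density by GC of all members, those of the list itself included.

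Many counts of the other lists depended on the replicate. Genes of the proteasome and ubiquitin held 7 members in 6 of 49 genes, where 2.24 would fall by bases and 2.63 by bases and GC. They included rpn-1, a scaffold of the proteasome's cap (39.6), ubq-1, which encodes polyubiquitin (39.2 and 28.3), and uba-1, which encodes the enzyme that activates ubiquitin (39.2, with 33.4 in replicate 1 and no peak in replicate 2). Replicate 1 alone gave 5, where 2.49 would fall by bases, and replicate 2 alone gave 3, where 2.33 would. Heat shock proteins held 6 in 5 of 44 genes against 2.65 by bases, of which 2 overlap in hsp-3, the gene of an endoplasmic reticulum chaperone (46.8 and 31.3). Replicate 1 alone gave 6 against 2.95 by bases, and replicate 2 alone 3 against 2.75. Translation factors held 4 against 2.03 by bases and 2.48 by bases and GC, with ifg-1 at 39.3 and eef-1A.2 at 38.5. The count was 5 against 2.26 in replicate 1 alone and 2 against 2.11 in replicate 2 alone, so the surplus was in replicate 1. Glycolysis and gluconeogenesis held 3 against 1.497, with 3 and 4 in the replicate lists. Histones, in his-24 and his-70, held 2 against 0.231 by bases and 0.337 by bases and GC, with 1 and 2 in the replicate lists. Only 14 of the 81 histone genes had eligible bases, and 42 of the 81 ribosomal protein genes. Ribosomal protein genes held 2 against 0.652, with 3 and 1, and tubulins 2 against 0.964, with 1 and 3.

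The counts of basement membrane, sarcomere and cadherin genes lay on opposite sides of the number from bases in the replicate lists. Basement membrane and adhesion genes held 8 members in 8 of 26 genes against 10.1 by bases, led by sax-7, a cell adhesion gene of the L1 family (43.3, with 18.04 and 16.9), and let-2, which encodes a type IV collagen chain (41.7, with 27.3 and 14.4). The count was 8 against 11.3 in replicate 1 and 14 against 10.6 in replicate 2. Sarcomere genes held 10 against 12.2, with 8 against 13.6 in replicate 1 and 16 against 12.7 in replicate 2. Cadherins held 4 against 4.31, with 7 against 4.80 in replicate 1 and 2 against 4.49 in replicate 2. Ion channels of nerve and muscle held 19 against 20.8, with 11 against 23.2 in replicate 1 and 19 against 21.7 in replicate 2, below it in both.

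Germline and oocyte genes held 6 members against 9.45 by bases, but 10 against 10.5 in replicate 1 alone and 10 against 9.84 in replicate 2 alone, so neither replicate list had that shortfall. gld-1, a translational repressor of the germline, was highest at 44.6 (27.4 and 15.7). Protein-coding genes of the Argonautes and the small RNA machinery held 9 against 6.57, with 6 against 7.32 in replicate 1 and 11 against 6.84 in replicate 2. Among them csr-1 stood at 44.1, with nearly equal replicates of 23.4 and 24.2. Vitellogenins, the yolk proteins, held 3 against 1.61, in vit-6 (42.2 and 30.8, both with 37.9 in replicate 1 and no peak in replicate 2) and vit-2 (32.5, with 23.8 in replicate 2 and no peak in replicate 1). The replicate lists gave 4 and 1.

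Nuclear hormone receptors held 18 against 15.7, with nhr-88 at 42.8 (30.4 and 12.9) and nhr-71 at 42.1 (21.2 and 19.6). The count was 20 against 17.4 in replicate 1 and 16 against 16.3 in replicate 2. Chromatin and transcription genes held 16 against 15.4, among them isw-1, which encodes a chromatin remodeller (43.0, with 24.2 and 21.1). The count was 18 against 17.2 in replicate 1 and 13 against 16.1 in replicate 2. C-type lectins held 12 against 10.9, with 15 against 12.2 in replicate 1 and 13 against 11.4 in replicate 2. Detoxification enzymes held 13 against 10.9, but 11 against 12.1 in replicate 1 and 16 against 11.3 in replicate 2. F-box proteins held 11 against 13.1, with 9 against 14.6 in replicate 1 and 10 against 13.7 in replicate 2. ABC transporters held 10 against 9.14, but 7 against 10.2 in replicate 1 and 6 against 9.51 in replicate 2. Neuropeptides held 2 against 1.57, with 5 and 2. Homeobox factors held 3 against 4.07, MATH and BTB proteins 3 against 4.04, kinesins, dyneins and myosins 5 against 7.96, and major sperm proteins 0 against 0.209.

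Genes tied to the factor's known role were not among the strong members. Of 29 distal tip cell genes with eligible bases, 1 held a member, mig-6, which encodes papilin, a matrix protein, where 3.64 would fall by bases. Its pooled signal was 31.1, with 13.4 in replicate 1 and 17.2 in replicate 2. Replicate 1 alone gave 1 member in these genes, where 4.06 would fall, and replicate 2 alone gave 4, where 3.79 would, so the low count was not shared by both replicates. Among 40 basic helix-loop-helix genes, hlh-31 (30.5) and hlh-30 (27.9) held 1 each, against 1.85. The coding sequences of hlh-12 and unc-119 held no member, but they have only 391 and 671 eligible bases. At 57.4 members per Mb so few bases would seldom hold a member, so its absence there says little. Within 20000 bp of hlh-12 there were 3, and within the same distance of unc-119 there were 0. The eligible bases within these distances were not counted, so no number expected from bases stands beside either count. Over all eligible coding bases the density was 57.4 members per Mb. The 3 were in C28C12.11, 3.68 kb away, with a pooled signal of 51.2 and replicate signals of 29.0 and 22.8, and at 2 places in spp-8, named because it lies there, which encodes a saposin-like protein. The spp-8 peaks, 2.91 kb and 3.94 kb from hlh-12, had pooled signals of 36.2 and 29.1, with 14.8 and 29.0 in replicate 1 and no overlapping peak in replicate 2. The sources used here do not say how many copies of this region the strain carries, and the part of copy number in these values was not tested.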

How the data were processed

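Peak lists in narrowPeak form, deposited by the authors in genome build ce11 for each replicate, for both replicates together (relaxed) and after IDR thresholding, were used; the ce10 lists were not used. Per the file listings, the relaxed lists are peaks and background made as input for IDR; the sources used here name no aligner, peak caller or scaling for depth. The signal and the −log10 q of each peak are values the authors deposited, and the deposited p-value column was empty. Read depth is unknown.

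Summits were classified on WBcel235 with the Ensembl 115 annotation. GC, E-boxes and place on the transcript with the longest coding sequence were computed at members and at every eligible coding position (Python 3.11.15, numpy 2.4.6, pandas 2.3.3, scipy 1.17.1), and the scripts were tested on simulated summits. Shares have 95% Wilson intervals, which cover the sampling of peaks only. The number of members expected from GC uses the density of all members in 8 GC bins. The members of a list, chromosome or part of the gene thus enter their own expected number. A replicate signal is the highest among overlapping peaks of that replicate list. No test compares groups, since there is 1 group.

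Members and the 29 gene lists were chosen with earlier results of these data known. Named are the genes of the 15 strongest members, those with 3 or more members, up to 3 per list with the strongest member, those in the IDR list, hlh-12 and unc-119. The correction of gene lists, chromosomes and place for GC, the numbers expected per replicate list and promoter window, the GC-weighted E-box share, the repeated 36-mers and the overlap between replicate lists by class were added after the data were seen.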

Additional observations from a re-analysis of the deposited data

How the results depend on the processing

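No paired analysis was possible because all samples belong to 1 group. Of the 65 alternative values of the main results, 49 stayed within the spread between replicate lists, within 1.5 times for counts, or within 1 base of the window for the GC difference, which was 1.98 with either replicate left out and with promoters of 2000 bp upstream. The share of nuclear peaks that are members, 17.2%, was 18.7% with promoters of 500 bp upstream and 12.2% with 2000 bp upstream and 500 bp downstream, and 17.96% and 19.2% with 1 replicate left out; it has no value for the stronger members alone. Members with signals above their median gave 554 genes, a signal ratio (by the same cut in the other peaks) of 0.9504 (0.986 in all members; 0.939 and 0.976 with 1 replicate left out) and a share with a counterpart in both replicates of 25.3%. That share, 14.8%, was 58.7% in the whole relaxed lists and 41.3% to 52.8% with 1 replicate left out, where a single counterpart is asked for. The GC difference, 2.97 points, was 0.998 within 200 bp. The difference in place, 2.70 points, was 1.251 with the mean over all transcripts and 1.70 to 2.87 with 1 replicate left out. The E-box difference, -1.44 points, was -0.56 within 25 bp, turned to 0.44 without replicate 2 and was -0.39 without replicate 1; the cause was not tested. Over the members of single gene lists, 46 of 232 alternative counts moved by more than 1.5 times. Unknown read depth, 2 replicates and replicate signals that overlapping peaks share limit all values.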

Other observations

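Few members lay in repeated sequence. The 36 bp at the summit recurred elsewhere in the genome for 4 members (0.348%, 95% Wilson interval 0.135 to 0.892), against 3.67% of eligible coding positions. The 4 lay in ubq-1, with pooled signal 39.2, glrx-5 with 38.02, col-80 with 34.2 and Y73E7A.8 with 29.6, genes named after their values were seen. The sources used here do not say how reads that match several places were treated. Soft-masked bases, which mark repeats in the reference, lay at 6.01% of the summits (4.77 to 7.53), against 7.83% of positions.

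Hexamers were ranked against a sample of 1001296 eligible coding positions. Among all 2080 hexamers, each counted with its reverse complement within 50 bp, GGAGCC was the one furthest above the positions, at 8.01% of members against 4.43%. CTGCTC followed at 10.1% against 6.55%. AATGAT was furthest below, at 6.53% against 11.1%. Across hexamers, which are not independent of each other, the difference followed the number of G and C letters, with a rank correlation of 0.64. GTTCGA, the core of the B box of tRNA genes, was at 5.22% of members and 5.27% of positions.

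Genes known only by a sequence name, such as F26H11.4, held 345 members (30.03%) with 32.95% of the eligible bases.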
